A study of Sus scrofa with 4 samples.

Results

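The insulin-like growth factor (IGF) genes were followed in cultured cells labelled as immature spermatogonia from pig testis, with and without knockdown of ZBTB16, a BTB zinc finger transcription factor that marks undifferentiated spermatogonia. The 10 genes were taken by symbol from the deposited gene tables: the ligands IGF1 and IGF2, the receptors IGF1R and IGF2R, and the binding proteins IGFBP2 to IGFBP7. They are 10 of 26921 genes and loci in the tables, and all 10 had enough counts to be tested. RNA was sequenced from 2 control libraries, whose genotype label is WT, and 2 libraries labelled ZBTB16 knockdown. By the design text, primary cells were to be infected with lentivirus encoding a hairpin against ZBTB16. Whether control cells were given a vector is not in the labels, so viral infection and loss of ZBTB16 cannot be told apart. The labels speak of 2 independent experiments, and nothing more ties them to separate animals, so p-values reflect the spread among these libraries, which may be technical.

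IGF1 and IGF2 are small secreted hormones related to insulin that promote cell growth and survival through IGF1R, a receptor tyrosine kinase that signals through PI3K and AKT. IGF2R is the mannose 6-phosphate receptor, which carries enzymes to lysosomes and takes IGF2 up for breakdown. The binding proteins hold the ligands outside the cell and can block or prolong their action, and in the testis Sertoli, Leydig and peritubular cells are known sources of IGFs and their binding proteins.

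ZBTB16 itself had 1.77 and 1.76 FPKM (fragments scaled to transcript length and library depth) in the control and 1.37 and 1.34 FPKM in the knockdown. Its fitted count fell to 0.779 times control (edgeR quasi-likelihood test, adjusted p = 0.00338). The libraries held 15983390 to 18500447 expected counts. Sequenced fragments averaged 325.7 and 326.7 bases in the controls against 266.4 and 267.3 bases in the knockdown. Mitochondrial genes held 4.15% and 4.29% of the counts in the controls and 5.71% and 5.71% in the knockdown. Fragment length thus divided the libraries by group, and it cannot be told apart from the knockdown, nor can whatever made it differ. FPKM summed to 739808 and 742383 in the controls and 634962 and 632881 in the knockdown, so FPKM and TPM give different fold changes. Differences within a group were near counting noise, with a chi-square per degree of freedom of 1.15 between controls and 1.26 between knockdown libraries. Between groups it was 25.1 to 27.1.

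Markers of several testis cell types were present. The 10 germ cell markers found in the tables had a median of 1.8 FPKM over the libraries, with UCHL1 the highest. The 12 Sertoli cell markers had a median of 17.3 FPKM, led by CLU, the 8 peritubular muscle markers 111 FPKM, led by ACTA2, and the 9 fibroblast markers 159 FPKM, led by COL1A2. The 8 Leydig cell markers had a median of 11.4 FPKM, led by CYP11A1, the 10 macrophage markers 0.99 FPKM, led by CD14, and the 8 endothelial markers 0.76 FPKM, led by PECAM1. In none of the lists was a marker at 0 in every library. In libraries labelled as spermatogonia, the germ cell median was thus below those of the Sertoli, Leydig, peritubular and fibroblast lists and above those of the macrophage and endothelial lists. The summed FPKM of the germ cell list was 138 and 139 in the controls and 106 and 109 in the knockdown. UCHL1 made up most of it, and the other germ cell markers summed to 17 and 18 FPKM in the controls and 20.2 and 20.3 FPKM in the knockdown, the opposite direction. That of the Sertoli list was 2705 and 2735 against 2864 and 2892, that of the peritubular list 5655 and 5736 against 5518 and 5622, and that of the fibroblast list 2812 and 2823 against 2602 and 2622. That of the Leydig list was 254 and 257 against 214 and 224, and that of the macrophage list 36.5 and 40.1 against 25.4 and 28.1. Within the peritubular list TAGLN, named after its values were seen, was at 1918.5 and 1846 against 1442 and 1418 FPKM, while ACTA2 was higher in the knockdown. FPKM of all genes also summed to less in the knockdown, so such sums can depend on the unit. TPM scales each library to the same total. In TPM CLU, CYP11A1, ACTA2 and COL1A2 were higher in the knockdown, UCHL1 and CD14 lower, and PECAM1 overlapped. Each is the highest marker of its list, and other markers of a list need not follow it. COL1A2 was at 1153 and 1143 against 1177 and 1185 TPM. On log2(TPM + 1) the median of all tested genes was itself shifted by 0.144 toward the knockdown. In the edgeR fit to counts COL1A2 fell (log2 -0.149) and CYP11A1 did not pass (log2 -0.048). By the fit, which called 46.4% of all 15763 tested genes, 22.7% higher and 23.8% lower, 8 of 11 tested Sertoli markers rose and 2 fell, 6 of 8 peritubular markers rose and 1 fell, 1 of 9 fibroblast markers rose and 4 fell, and 0 of 7 Leydig markers rose and 2 fell. Of 7 tested macrophage markers 1 rose and 3 fell, of 8 germ cell markers 4 rose and 2 fell (UCHL1 and the targeted ZBTB16), and of 8 endothelial markers 0 rose and 1 fell. The part of these shifts in the values of the IGF genes was not tested, and in such bulk libraries fewer cells of a type and less RNA per cell cannot be told apart.

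IGF1, IGF1R and IGFBP6 were the 3 genes whose calls held in every alternative fit to counts. The 250 bases before the outermost annotated start of each are shown for that reason. They differ in base composition (RefSeq annotation, assembly Sscrofa11.1, read 5′ to 3′ on the strand of the gene). Capitals mark a GC box, GGGCGG on either strand, which 44.4% of the 20664 such windows of protein-coding genes hold. Searched on both strands as well were the TATA box TATAAA, which 10.4% of all windows hold, and the CCAAT box, whose letters are its name and which 32.0% hold. The FOXO element GTAAACA is in 2.3%. None of these other motifs is in the 3 windows.
IGF1 (chr5:81761777-81762026, plus strand): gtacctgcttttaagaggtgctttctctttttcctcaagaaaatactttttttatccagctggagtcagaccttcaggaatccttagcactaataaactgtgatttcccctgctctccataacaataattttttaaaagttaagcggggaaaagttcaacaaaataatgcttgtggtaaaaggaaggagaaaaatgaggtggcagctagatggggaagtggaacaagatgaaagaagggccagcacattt
IGF1R (chr1:137691039-137691288, minus strand): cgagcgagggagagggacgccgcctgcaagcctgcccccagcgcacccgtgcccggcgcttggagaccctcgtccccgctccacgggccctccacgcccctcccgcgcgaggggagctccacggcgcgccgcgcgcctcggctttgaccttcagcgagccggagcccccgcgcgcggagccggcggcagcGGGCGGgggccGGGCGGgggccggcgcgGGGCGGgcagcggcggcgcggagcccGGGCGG
IGFBP6 (chr5:18352634-18352883, plus strand): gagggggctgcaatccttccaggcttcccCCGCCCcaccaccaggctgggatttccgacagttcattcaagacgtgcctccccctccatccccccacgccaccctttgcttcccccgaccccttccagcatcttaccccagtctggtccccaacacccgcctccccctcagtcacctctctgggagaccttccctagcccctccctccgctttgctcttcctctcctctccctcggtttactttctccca

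The window of IGF1 was 38.8% G and C with 1 CpG, that of IGF1R 83.6% with 44 CpGs and 4 GC boxes, and that of IGFBP6 63.2% with 8 CpGs and 1 GC box. The median window of protein-coding genes was 57.2% G and C. A match of letters is a description of the window and not a site.

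The binding proteins held 87.3% to 89.4% of the summed FPKM of the family in the 4 libraries, and the order of the 10 genes was almost the same in both groups. IGFBP7 was highest, followed by IGFBP4, IGFBP3, IGF2R and IGFBP5. IGFBP6 came next in the control and IGF1R in the knockdown. IGFBP2, IGF1 and IGF2 were lowest in both groups. By mean FPKM, IGFBP7 stood at the 97.5 percentile of all tested genes in either group, and IGF2 at the 23.9 percentile in the control and 31.2 in the knockdown. Neighbours in this order had ranges that did not overlap, except IGFBP2 and IGF1 in the knockdown (4.86 to 6.42 and 3.71 to 5.12 FPKM).

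**Figure D1:**
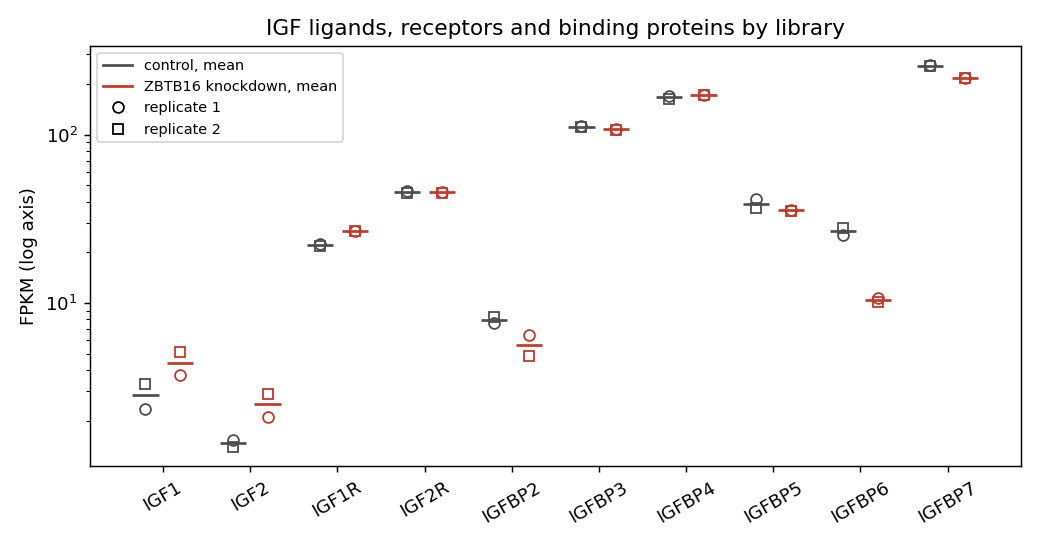
FPKM of the 10 genes (log axis) in each of the 2 control and 2 knockdown libraries, with horizontal lines at the group means. IGFBP6 drops from 25.5 and 27.8 to 10.8 and 10.2 FPKM, while most other genes lie at similar heights in both groups.

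The 6 binding proteins summed to 615 and 600.5 FPKM in the controls and 549 and 546 FPKM in the knockdown. The FPKM of all genes summed to less in the knockdown too, so the direction of this sum can depend on the unit. In TPM IGFBP3, IGFBP4 and IGFBP5 were higher in both knockdown libraries, IGFBP2 and IGFBP6 were lower, and the groups overlapped for IGFBP7. The median of all tested genes was itself shifted by 0.144 on log2(TPM + 1). Less that median, IGFBP3 was at 0.034, IGFBP4 at 0.125 and IGFBP5 at -0.044. IGFBP2 was at -0.395, IGFBP6 at -1.221 and IGFBP7 at -0.165. The 2 ligands summed to 3.87 and 4.72 FPKM in the controls and 5.81 and 8.01 FPKM in the knockdown. The 2 receptors summed to 68.7 and 66.7 FPKM and to 72.5 and 71.7 FPKM. Within the binding proteins, IGFBP7 held 42.1% and 42.3% of the summed FPKM in the controls and 39.3% and 39.8% in the knockdown. IGFBP4 held 27.6% and 27.1% against 31.3% and 31.4%, and IGFBP6 4.1% and 4.6% against 2% and 1.9%. Each of these shares was separated between the groups, with 2 libraries on either side.

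**Figure D2:**
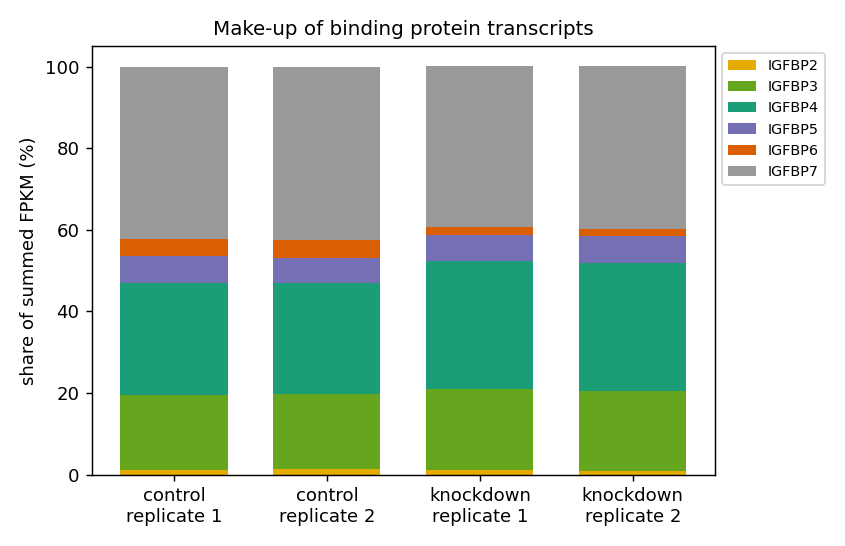
Share of the summed FPKM of the 6 binding proteins (percent, stacked bars from 0 to 100) in each library. The orange band of IGFBP6 narrows from 4.1% and 4.6% to 2% and 1.9%, and the teal band of IGFBP4 widens from 27.6% and 27.1% to 31.3% and 31.4%.

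Of the 10 genes, 3 rose in the knockdown (IGF1, IGF1R and IGFBP4), 4 fell (IGFBP2, IGFBP5, IGFBP6 and IGFBP7) and 3 did not pass (IGF2, IGF2R and IGFBP3). Of all 15763 tested genes 46.4% were called, 22.7% higher and 23.8% lower, so a call as such does not set a member apart. The median log2 fold change was 0.04 over the members and 0.00 over all tested genes (-0.001 before rounding). The largest member changes were the fall of IGFBP6 and the rise of IGF1. The median size among all called genes was 0.32 on the log2 scale.

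IGF1, the ligand that acts mainly through IGF1R (chromosome 5, 81762027 to 81909253, plus strand), had 185 and 191 counts in the controls and 332 and 297 with knockdown. Both knockdown libraries were above both controls. Its fitted count rose 1.61-fold (log2 0.68, SE 0.0976, adjusted p = 5.14e-10). In FPKM it was at 2.33 and 3.32 in the controls and 3.71 and 5.12 in the knockdown, again without overlap but with a wider spread. The deposited length of IGF1, averaged over its 8 annotated transcripts by their estimated use, was 4927 and 3924 bases in the controls and 5104 and 3770 bases in the knockdown, so libraries of the same group differed more in length than in counts. Limma on log2(FPKM + 1) put IGF1 at 0.50 (adjusted p = 0.0768), and a pseudocount of 0.1 put it at 0.63 (0.0785). IGF1 was higher in all 15 alternatives and passed in 13.

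IGF2, the fetal growth factor whose gene is imprinted in mammals (chromosome 2, 1469183 to 1496417, minus strand), had the lowest level of the family. It had 89 and 77 counts in the controls and 107 and 103 in the knockdown, and the fitted change did not pass (log2 0.28, SE 0.158, adjusted p = 0.137). Its FPKM was 1.54 and 1.4 against 2.1 and 2.89, without overlap. The deposited transcript length of IGF2, which has 17 annotated transcripts, was 3661 and 3767 bases in the controls and 3018 and 2417 bases in the knockdown. Shorter estimated transcripts give a higher FPKM for the same count. IGF2 passed as higher where this length was used: log2 0.78 with the effective length as an offset (adjusted p = 3.99e-04), 0.49 with limma on log2(FPKM + 1) (0.0332) and 0.71 on log2(TPM + 1) (0.013). INS, the insulin gene, which lies 424 bases upstream on the same strand, had 0 and 3 counts in the controls and 2 and 0 in the knockdown.

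IGF1R, the receptor that passes the signal of both ligands into the cell (chromosome 1, 137383623 to 137691038, minus strand), was at 22.4 and 21.8 FPKM in the controls and 26.6 and 26.8 FPKM in the knockdown. The groups did not overlap and differed by far more than libraries within a group. Its counts of 3264 and 2849 in the controls and 4114 and 3676 in the knockdown gave a 1.23-fold rise (log2 0.29, SE 0.03, adjusted p = 8.61e-17). IGF1R passed as higher in all 15 alternatives, with log2 changes of 0.13 to 0.49. The low end was with the trend of transcript length removed, where the adjusted p was 1.09e-04.

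IGF2R (chromosome 1, 7369485 to 7472480, minus strand), on the same chromosome, was at 46.3 and 44.9 FPKM in the controls and 45.9 and 44.9 FPKM in the knockdown. The groups overlapped, and the fitted change was -0.01 on the log2 scale (SE 0.0234, adjusted p = 0.805). It was the receptor with the higher level in every library. Its direction depended on the scaling: it passed as lower after removal of the length trend (log2 -0.18, adjusted p = 3.18e-12) or of both length and GC trends (-0.07, 0.0118), and as higher on log2(TPM + 1) (0.22, 0.00586). On the TPM scale the median of all tested genes was itself shifted by 0.144, and IGF2R lay 0.07 above that median.

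IGFBP6, a binding protein with a preference for IGF2 (chromosome 5, 18352884 to 18357225, plus strand), showed the largest change of the family. It had 302 and 301 counts in the controls and 145 and 126 in the knockdown, and 25.5 and 27.8 against 10.8 and 10.2 FPKM. The groups were far apart, with little spread inside each. Its fitted count fell to 0.432 times control (log2 -1.21, SE 0.107, adjusted p = 6.77e-21). IGFBP6 passed as lower in all 15 alternatives, with log2 changes between -1.34 and -0.84 and a highest adjusted p of 3.81e-04. The smallest of these changes came after removal of both length and GC trends.

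IGFBP4, a binding protein cut by the protease PAPPA to free IGFs (chromosome 12, 21966524 to 21980043, minus strand), moved against IGFBP6. Its counts of 1336 and 1183 in the controls and 1634 and 1457 in the knockdown gave a 1.18-fold rise (log2 0.24, SE 0.0433, adjusted p = 8.27e-07). In FPKM the groups were closer, with 170 and 163 in the controls and 171.6 and 171.4 in the knockdown, and did not overlap. The annotated transcript is 780 bases long. After the fragment length is taken off, its effective length was 455 and 454 bases in the controls and 515 and 514 in the knockdown. An offset of that effective length left 0.09 (adjusted p = 0.0785), and limma on log2(FPKM + 1) gave 0.04 (0.28). With the length trend removed it was 0.57 (4.27e-31), since the 884 tested genes of 500 to 1000 bases had a median change of -0.42. IGFBP4 was thus higher in all 15 alternatives and passed in 12, while its size ran from 0.04 to 0.71.

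IGFBP7, a secreted protein of the same fold family that binds IGFs weakly (chromosome 8, 56283089 to 56357822, minus strand), had the highest level. It was at 259 and 254 FPKM in the controls and 216 and 217 FPKM in the knockdown. The groups did not overlap. Its counts of 3541 and 3217 against 3394 and 3055 gave a fall to 0.917 times control (log2 -0.12, SE 0.0302, adjusted p = 2.23e-04). On TPM, which scales each library to the same total, it was at 350.1 and 342 in the controls and 339.5 and 343 in the knockdown, and the groups overlapped. On log2(TPM + 1) its change was -0.021, against a median of 0.144 over all tested genes. The direction of IGFBP7 depended on the correction: it was 0.07 without the length trend (adjusted p = 0.0534) and 0.18 without length and GC trends (7.67e-07). The 3 genes whose centred log2(FPKM + 1) values over the 4 libraries were most like those of IGFBP7, among 11524 genes with a symbol and at least 1 FPKM, were VAMP4, PEA15 and TRAFD1. Their root mean square differences from it were 0.00165, 0.00344 and 0.00417 on the log2 scale, and nothing further follows from 4 libraries in 2 groups.

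IGFBP3, the main carrier of IGFs in blood (chromosome 18, 50002921 to 50009425, plus strand), did not pass. It was at 111.7 and 110.7 FPKM in the controls and 108.5 and 107 FPKM in the knockdown, with the knockdown lower. By counts it had 1499 and 1372 against 1677 and 1478, and the fitted change was upward (log2 0.08, SE 0.0419, adjusted p = 0.116). Its direction therefore depended on the unit, and it passed as higher without the length trend (0.28, 1.82e-09), with length and GC trends removed (0.37, 9.38e-15) and on log2(TPM + 1) (0.18, 0.00437). On the TPM scale the median of all tested genes was itself shifted by 0.144, and IGFBP3 lay 0.034 above that median. IGFBP1, its neighbour 9061 bases away, had 2 and 2 counts in the controls and 0 and 0 in the knockdown, too few for a fold.

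IGFBP2 and IGFBP5 lie on chromosome 15, IGFBP2 at 118822092 to 118850985 on the plus strand and IGFBP5 at 118861816 to 118877787 on the minus strand, with their ends 10830 bases apart and no annotated gene between. IGFBP2, which binds both ligands, had 139 and 140 counts in the controls and 133 and 90 in the knockdown. Knockdown replicate 2 was the low library, and knockdown replicate 1 lay near the controls. In FPKM it was at 7.59 and 8.27 against 6.42 and 4.86. Its fitted count fell to 0.768 times control (log2 -0.38, SE 0.138, adjusted p = 0.016). The call was lost without knockdown replicate 2 (log2 -0.20, adjusted p = 0.303), without control replicate 2 (-0.32, 0.122), with DESeq2 (-0.39, 0.202), on log2(TPM + 1) (-0.25, 0.162), without the length trend (-0.21, 0.227) and without length and GC trends (-0.12, 0.563).

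IGFBP5, a binding protein that also attaches to the extracellular matrix, had 2230 and 1912 counts in the controls and 2041 and 1895 in the knockdown. In FPKM it was at 41.2 and 36.5 against 35.9 and 35.4, so control replicate 1 stood apart and control replicate 2 was close to the knockdown. Its fitted count fell to 0.914 times control (log2 -0.13, SE 0.0375, adjusted p = 0.0021). Without control replicate 1 the change was -0.08 (adjusted p = 0.234) and without knockdown replicate 1 it was -0.11 (0.0734). On log2(TPM + 1) the sign turned (0.10, adjusted p = 0.244), 0.04 below the median of all genes there. The call held in 7 of 15 alternatives.

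**Figure D3:**
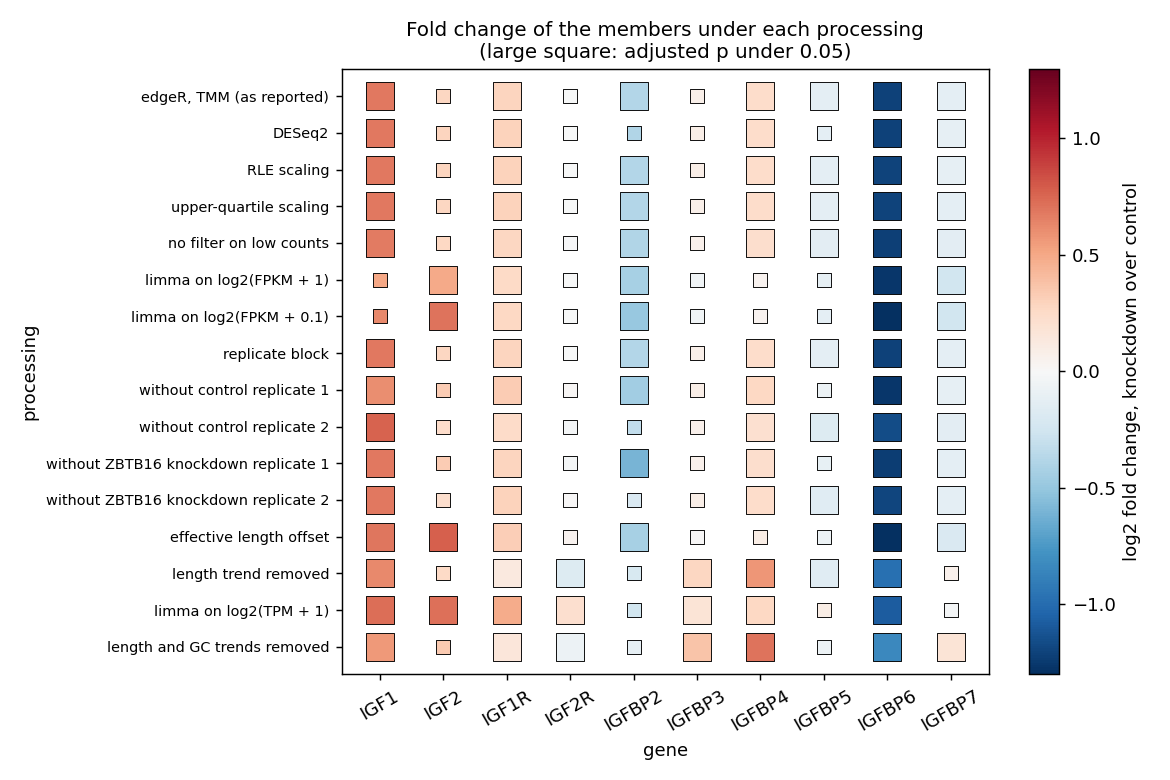
Log2 fold change of each gene, knockdown over control (colour), under the reported processing and 15 alternatives, with large squares where the adjusted p was under 0.05. IGFBP6 and IGF1R pass in the same direction in every row, while IGF2R and IGFBP7 change colour between rows.

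The number of called members moved with the processing. DESeq2 called 3 higher and 2 lower, where it called 28.2% of all genes, 13.8% higher and 14.5% lower. On log2(TPM + 1) limma called 6 higher and 1 lower, where it called 53.2% of all genes, 39.5% higher and 13.7% lower. With length and GC trends removed edgeR called 5 higher and 2 lower, against 39.4% of all genes, 19.3% higher and 20.1% lower. The share of all genes called was 40.9% with the length trend removed (19.3% higher, 21.6% lower) and 46.4% with the effective length offset. It was 46.6% with RLE scaling, 46.7% with upper-quartile scaling, 30.5% with no filter, 45.3% and 45.2% with limma on log2(FPKM + 1) and log2(FPKM + 0.1), and 47.5% with a replicate block (23.3% higher, 24.1% lower). Leaving out control replicate 1 or 2 gave 37.4% and 38.5%, and leaving out knockdown replicate 1 or 2 gave 38.4% and 37.9%.

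From 500 bases upward the median fold change of all tested genes was higher in each longer class of transcripts, and the members range from 780 bases (IGFBP4) to 9042 bases (IGF2R). Among the 3177 tested genes with 1000 to 2000 bases the median was -0.19 on the log2 scale, and among the 1044 with 8000 or more it was 0.19. The 235 genes under 500 bases, where no member lies, went against this order with a median of 0.70 and quartiles of -0.52 and 1.35. IGFBP6, at 1006 bases, lay well below the quartiles of the first of these groups (-0.40 to 0.02), IGFBP3 (1101 bases) above them, and IGFBP7 (1117 bases) and IGFBP2 (1385 bases) inside. IGF1, at 4431 bases, lay above the quartiles of the 3118 genes of 4000 to 6000 bases (-0.08 to 0.24). Of the 2564 genes of 3000 to 4000 bases (-0.13 to 0.19), IGF2 lay above the quartiles, and IGFBP5, at -0.13, lay at the lower quartile. IGF1R, at 8602 bases, lay inside those of the longest genes (0.03 to 0.33) and IGF2R below them. The mean GC content of the annotated transcripts was 40.9% for IGF1, 51.8% for IGF1R and 59.6% to 69.3% for the other 8 genes.

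**Figure D4:**
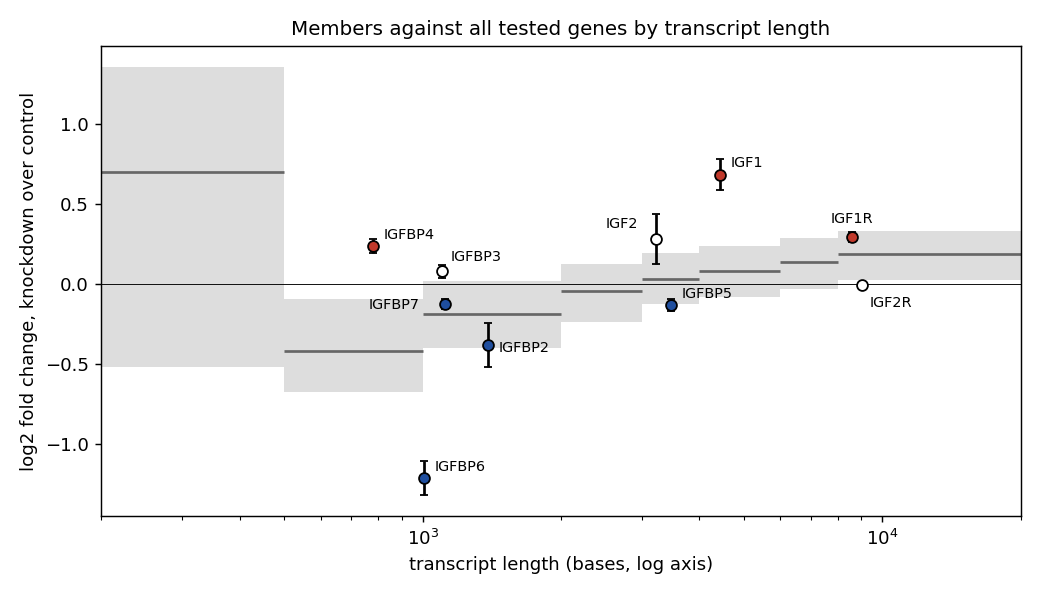
Log2 fold change of the 10 genes with the standard error of the fit against transcript length (log axis), red where they rose, blue where they fell and white where they did not pass. Grey lines and bands give the median and quartiles of all tested genes by length, from 235 genes under 500 bases to 1044 genes of at least 8000. IGFBP6 and IGF2R lie below their bands, IGF1, IGF2, IGFBP3 and IGFBP4 above theirs, and IGFBP5 at the lower edge.

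Among other genes of the pathway more rose than fell. Of 83 listed symbols, some of them newer and older names of the same gene, 75 were in the tables and 72 were tested. Of the tested genes 33 rose, 9 fell and 30 did not pass, 58.3% called against 46.4% of all genes. Their median log2 change was 0.13, against 0.00 over all tested genes. It was 0.09 without the length trend, where 25 rose and 9 fell, and 0.10 without length and GC trends, where 27 rose and 5 fell. The share called was 47.2% against 40.9% of all genes without the length trend. Without length and GC trends it was 44.4% against 39.4%. With the effective length offset 39 rose and 8 fell, with a median of 0.18 and 65.3% called against 46.4%. DESeq2 called 24 higher and 7 lower, 47% against 28.2%. On log2(TPM + 1), where 39.5% of all genes were called higher, 46 were higher and 2 lower, 73.8% against 53.2%.

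**Figure D5:**
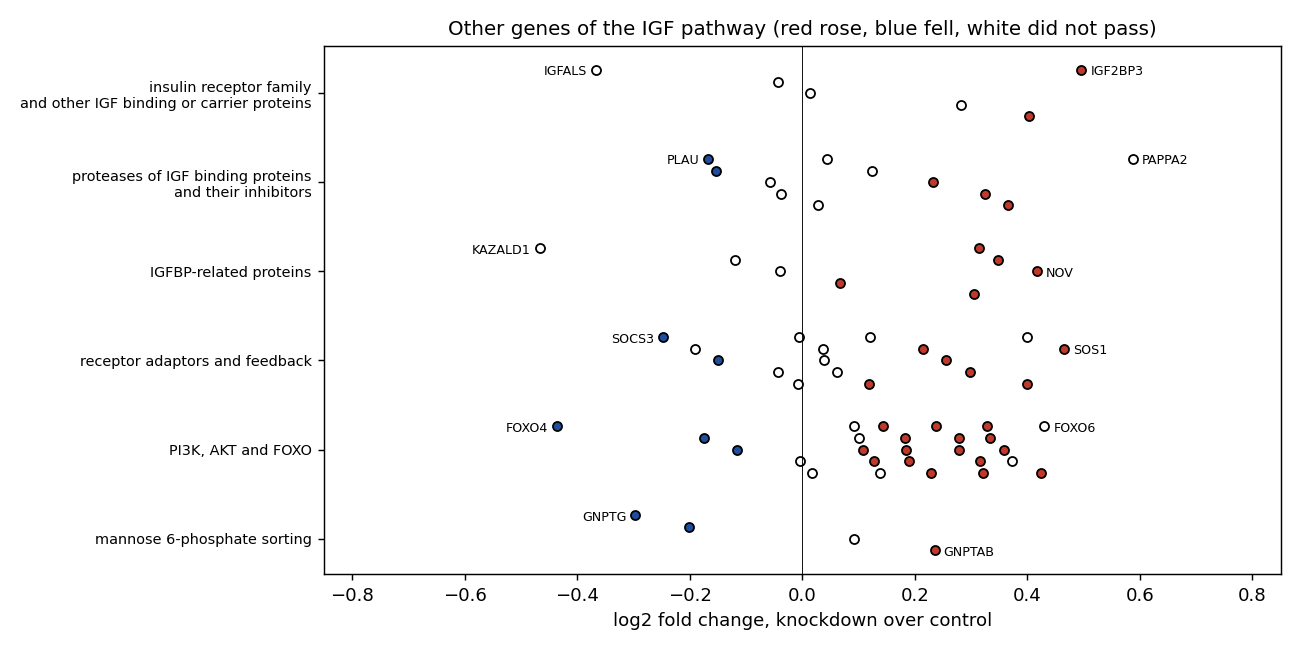
Log2 fold change, knockdown over control, of the 72 tested pathway genes outside the family, one row for each list, with the lowest and highest gene of each list named. In the PI3K, AKT and FOXO list 16 red points (rose) lie to the right of 0 and 3 blue points (fell) to the left, by counts. AKT2, among the blue points, was higher by FPKM.

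Among the 26 tested genes of PI3K, AKT and FOXO signalling, the chain below IGF1R, 16 rose, 3 fell and 7 did not pass, with a median of 0.19 and 73.1% called against 46.4% of all genes. GSK3B, a kinase that AKT inhibits, rose from 56 ± 0.438 to 65.5 ± 0.311 FPKM (SD, n = 2; log2 0.33, adjusted p = 9.77e-21), and its relative GSK3A rose 1.28-fold. PIK3R1, the regulatory subunit of PI3K, rose from 16.3 ± 0.233 to 19.9 ± 0.247 FPKM, and MTOR, the growth kinase, from 10.9 ± 0.0424 to 13.3 ± 0.0141 FPKM. These 4 genes passed as higher in all 15 alternatives. With the length trend removed 8 genes of the list were higher and 3 lower, with a median of 0.07, and the share called was 42.3%, near the 40.9% of all genes in that fit. DESeq2 called 10 higher and 2 lower, 48% of the list against 28.2% of all genes. With limma on log2(FPKM + 1) 9 were higher and 3 lower, 50% against 45.3%. Without length and GC trends 10 were higher and 1 lower, 42.3% against 39.4%. The effective length offset gave 19 higher and 3 lower, with a median of 0.234 and 84.6% called against 46.4%. On log2(TPM + 1), where 39.5% of all genes were called higher, 20 were higher and 1 lower, 84% against 53.2%. The excess over all genes thus varied with the processing. The 3 genes that fell by counts, named after their values were seen, were AKT1, AKT2 and FOXO4. AKT2, a kinase of this chain, fell to 0.923 times control by counts (adjusted p = 0.0106), while its FPKM was higher in the knockdown, at 43.8 and 44.4 against 36.9 and 37.5, and its deposited length shorter, at 2447 and 2448 against 3179 and 3147 bases.

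Of 17 adaptors and feedback regulators of the receptor, 6 rose, 2 fell and 9 did not pass, 47.1% called against 46.4% of all genes. SOS1, which activates RAS, rose from 14.7 ± 0.262 to 19.9 ± 0.488 FPKM (log2 0.47, adjusted p = 7.55e-27). IRS2, a docking protein of the insulin and IGF receptors, rose 1.32-fold and GRB14, an adaptor that inhibits them, 1.16-fold. PHIP, a protein that binds IRS1, rose 1.23-fold and was at 0.06 on the log2 scale without length and GC trends (adjusted p = 0.259).

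Of 11 tested proteases of binding proteins and their inhibitors, 3 rose, 2 fell and 6 did not pass. The share called was 45.5%, against 46.4% of all genes. ADAM9 rose from 75.8 ± 0.693 to 92.1 ± 0.636 FPKM (log2 0.32, adjusted p = 4.08e-24), as did ADAM12 from 18.1 ± 0.0424 to 23.2 ± 0.29 FPKM (log2 0.37, adjusted p = 4.19e-21), both metalloproteases reported to cut binding proteins. PAPPA, the protease of IGFBP4, rose 1.17-fold at 3.98 to 4.74 FPKM, and was at 0.04 without the length trend (adjusted p = 0.65). CTSD, a lysosomal protease, fell to 0.899 times control. Without length and GC trends CTSD passed as higher (log2 0.06, adjusted p = 0.0396), and its direction thus varied with the correction.

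Of 8 tested IGFBP-related proteins 5 rose, 0 fell and 3 did not pass, 62.5% called against 46.4% of all genes. CRIM1, a membrane protein with an IGFBP-like domain, rose 1.27-fold, and CYR61, a matricellular protein, from 100.4 ± 0.318 to 119 ± 0.771 FPKM (log2 0.31, adjusted p = 1.23e-17). ESM1, a secreted proteoglycan, rose 1.24-fold and NOV, a relative of CYR61, 1.34-fold. These 4 passed as higher in all 15 alternatives.

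The list of the insulin receptor and other binding or carrier proteins had 2 rises, 0 falls and 4 genes that did not pass among 6 tested. Its share called was 33.3%, against 46.4% of all genes. IGF2BP2, which binds IGF2 mRNA, rose from 18.1 ± 0.262 to 24 ± 1.27 FPKM (log2 0.40, adjusted p = 4.05e-15), a call that held in all 15 alternatives. IGF2BP3 rose 1.41-fold from 1.03 ± 0.141 to 1.43 ± 0.00707 FPKM, a call that held in 10 of 15 alternatives. The call of IGF2BP3 was lost with DESeq2 (adjusted p = 0.144) and without length and GC trends (0.0605). It was also lost with limma on log2(FPKM + 1) (0.0792) and log2(FPKM + 0.1), and without control replicate 1 (log2 0.37). INSR, which binds insulin, measured 6.36 ± 0.0424 and 6.06 ± 0.24 FPKM (adjusted p = 0.505) and passed as lower without the length trend (log2 -0.22, 1.22e-04). IGF2BP1 was at 1.31 ± 0.0283 and 1.21 ± 0.0141 FPKM (adjusted p = 0.965).

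Of the 4 genes of mannose 6-phosphate sorting, the pathway whose cargo IGF2R carries, 1 rose, 2 fell and 1 did not pass. That is 75% called, against 46.4% of all genes. GNPTAB, the enzyme subunit that starts the tag, rose from 54.8 ± 1.31 to 63.2 ± 0.679 FPKM (log2 0.23, adjusted p = 7.96e-15). M6PR, the other mannose 6-phosphate receptor, fell from 122 ± 8.73 to 105 ± 1.77 FPKM (log2 -0.20, adjusted p = 2.61e-10), and was at 0.01 on log2(TPM + 1) without a call. GNPTG, a further subunit of the enzyme, fell to 0.814 times control and was at -0.10 without length and GC trends (adjusted p = 0.0761). NAGPA, which uncovers the tag, was at 8.03 ± 0.424 and 8.28 ± 0.29 FPKM (adjusted p = 0.448) and passed as higher without length and GC trends (log2 0.25, 0.0199).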

How the data were processed

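RNA was measured in 2 control and 2 ZBTB16 knockdown libraries, grouped by their titles. Per the labels' protocols, the authors filtered reads with SOAPnuke 2.1.0, aligned them with HISAT2 2.2.1 to Sscrofa 11.1, mapped them to transcripts with bowtie2 2.3.5 and counted with RSEM 1.3.3. The deposited tables give expected counts, which share a read among transcripts and need not be whole, and FPKM. They also give deposited TPM, which sums to one fixed total per library, and deposited transcript and effective lengths in bases. The sources used here do not say whether counting used strand. Of 77225 RefSeq transcripts named in the tables, 77219 were in the annotation of the same assembly by accession, which gave positions and GC content.

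Expected counts were rounded and tested with edgeR 4.0.16 in R 4.3.3 (TMM, filterByExpr with minimum count 10 and minimum total count 15, two-sided quasi-likelihood test, Benjamini-Hochberg over 15763 genes, called at adjusted p under 0.05). Fold changes are knockdown over control. An exact permutation test of 2 against 2 cannot give a p below 0.333, so the tests rest on a spread pooled over genes. Alternatives were DESeq2 1.42.0, RLE and upper-quartile scaling, no filter, limma 3.58.1 on log2(FPKM + 1) and log2(FPKM + 0.1), a replicate block, each library left out, an effective length offset and removal of a length trend (mgcv 1.9.3). Limma on log2(TPM + 1) and removal of length and GC trends (15283 genes) were added after the data were seen. Limma used genes with at least 1 FPKM or TPM in at least 2 libraries. The scripts were tested on simulated data.

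The members and lists were chosen with earlier results of these data known. Named were all 10 members, ZBTB16, up to 4 genes of each pathway list with the smallest p and a mean of at least 1 FPKM, the highest marker of each marker list, and the 3 genes most like the highest member. Outside this rule, TAGLN, AKT1, AKT2 and FOXO4 were named after their values were seen, and INS and IGFBP1 as neighbours of members.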

Additional observations from a re-analysis of the deposited data

How the results depend on the processing

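IGF1R and IGFBP6 kept direction and call in all 15 alternatives. IGF2 and IGFBP2 had the fewest counts of the members in a library, 77 to 107 and 90 to 140, and the largest standard errors. Over the 4 fits without 1 library the log2 change of IGFBP2 ran from -0.61 to -0.20 and that of IGFBP5 from -0.182 to -0.076. Same-numbered libraries did not deviate together (correlation 3.68e-04 over 15763 genes), and a replicate block left 3 members higher and 4 lower and 34 and 9 other pathway genes, with IGF1R at 0.29. DESeq2 called 2 members lower and left IGFBP2 at -0.39 and IGFBP5 at -0.12. With limma on log2(FPKM + 1) and with a pseudocount of 0.1, IGF1 was at 0.50 and 0.63 without a call, IGF2 at 0.49 and 0.71 with one, and IGFBP4 at 0.044 and 0.044 and IGFBP5 at -0.12 and -0.12 without. The effective length offset gave IGF2 0.78 with a call, and IGFBP4 0.094 and IGFBP5 -0.075 without. Removal of the length trend gave IGF2R -0.18 and IGFBP3 0.28 with calls, and IGFBP2 -0.21 and IGFBP7 0.07 without. On log2(TPM + 1), where the median of all genes was 0.144, 6 members were called higher and 1 lower and 2 other pathway genes lower. There IGF2 was at 0.71, IGF2R at 0.22 and IGFBP3 at 0.18 with calls, and IGFBP2 at -0.25, IGFBP5 at 0.10 and IGFBP7 at -0.021 without. Removal of length and GC trends called 5 members higher and 2 lower and 5 other pathway genes lower. It gave IGF2R -0.074, IGFBP3 0.37 and IGFBP7 0.18 with calls, and IGFBP2 -0.12 and IGFBP5 -0.076 without. The causes were not tested.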
